A study of Mus musculus with 15 samples.

Results

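Voltage-gated calcium channels open when the membrane is depolarised and let calcium into the cell. A set of 10 genes that encode subunits of these channels, *Cacna1a*, *Cacna1b*, *Cacna1c*, *Cacna1d*, *Cacna1e*, *Cacna1g*, *Cacna1h*, *Cacnb4*, *Cacna2d1* and *Cacna2d2*, were followed in mouse Purkinje cells (PCs) from birth to weaning age. They were chosen by gene symbol through their Ensembl identifiers, and all 10 were found among the 38561 genes in the count files. The samples are PCs cut by laser capture microdissection from the cerebellum of male mice, labelled strain C56/BL6 and given as C57/BL6 in the methods of the study. They form 5 groups by age in postnatal days (P0, P4, P8, then P14 and finally P21) of 3 biological replicates each, 15 samples together. No genotype or treatment differs between the groups, and each sample at P4 or later holds 1000 PC soma, whereas at P0 clusters of PCs were taken because single cells were hard to isolate. Age and way of collection cannot be told apart for P0. Counts on genes ranged from 3409371 to 7814951 per sample, so a gene without counts lies below 3 counts of these totals, which is 0.384 to 0.880 CPM (the count divided by the total of the library, on the usual scale) and covers counting error only.

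A channel is built around 1 pore-forming α1 subunit, whose gene sets the current type. *Cacna1a* encodes the pore of the P/Q-type channel, the P in its name standing for the Purkinje cell, *Cacna1b* that of the N-type channel, *Cacna1e* that of the R-type, *Cacna1c* and *Cacna1d* those of L-type channels, and *Cacna1g* and *Cacna1h* those of the low-voltage-activated T-type channels. In high-voltage-activated channels a cytoplasmic β subunit, such as the β4 subunit of *Cacnb4*, and an extracellular α2δ subunit, such as those of *Cacna2d1* and *Cacna2d2*, join the pore and set how much channel reaches the membrane and how it gates. Mutations of *Cacna1a*, *Cacnb4* and *Cacna2d2* cause the mouse ataxia mutants tottering, lethargic and ducky, and P-type current dominates the calcium current of the mature PC soma.

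Promoter sequence was looked up for the members, because genes that move in opposite directions can be set side by side at their start sites. RefSeq windows on GRCm38.p6 were matched for 7 of the 10 members, and *Cacna1a*, *Cacna1g* and *Cacna1h* had none. The 250 bases before the start are shown for *Cacna1b* (chr2:24763153-24763402, minus strand) and *Cacna2d1* (chr5:15934441-15934690, plus strand), both of which fell with age, and for an internal start of *Cacnb4* (chr2:52558612-52558861, minus strand), which rose. These 3 windows hold no annotated exon of their gene. They are written 5′ to 3′ with the GC box letters GGGCGG or their reverse complement CCGCCC in capitals.
Cacna1b: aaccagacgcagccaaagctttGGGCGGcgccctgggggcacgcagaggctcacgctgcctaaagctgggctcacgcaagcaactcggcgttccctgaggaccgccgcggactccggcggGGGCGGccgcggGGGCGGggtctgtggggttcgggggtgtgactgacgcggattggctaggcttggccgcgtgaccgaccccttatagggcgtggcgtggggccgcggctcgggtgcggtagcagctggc
Cacna2d1: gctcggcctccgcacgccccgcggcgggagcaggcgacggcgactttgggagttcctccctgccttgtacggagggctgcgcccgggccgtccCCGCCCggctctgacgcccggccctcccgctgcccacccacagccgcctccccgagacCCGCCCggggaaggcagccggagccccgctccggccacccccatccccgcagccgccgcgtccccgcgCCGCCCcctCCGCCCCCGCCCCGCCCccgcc
Cacnb4: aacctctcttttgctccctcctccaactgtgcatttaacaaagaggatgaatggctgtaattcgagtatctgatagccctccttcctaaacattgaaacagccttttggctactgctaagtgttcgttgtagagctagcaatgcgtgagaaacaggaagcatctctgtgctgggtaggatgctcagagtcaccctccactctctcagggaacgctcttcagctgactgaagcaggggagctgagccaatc
GC content was 72.0% for *Cacna1b*, 82.4% for *Cacna2d1* and 48.8% for *Cacnb4*, beside a median of 52.4% over all 32851 windows of this length. The window of *Cacna1b* holds 3 GC boxes and that of *Cacna2d1* holds 6, while this one of *Cacnb4* holds none. The other windows of rising members, which run into exons, were GC-rich as well. They stood at 79.6% with 6 GC boxes and 71.2% with none for 2 further starts of *Cacnb4*, and at 74.4% with 1 for *Cacna2d2*. GC-rich windows thus occurred among both rising and falling members, and a difference between them was not tested. GC boxes were found in 32.7% of all windows. The TATA box letters TATAAA (12.4% of all windows), the half-site AGGTCA (14.02%) and the cAMP response element TGACGTCA (1.55%), each searched on both strands, are in none of the 3. Such letters describe the window only, and the gene counts do not separate the start sites of *Cacnb4*.

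To compare levels between genes, counts were converted to RPKM, the usual measure scaled to the summed exon length of the gene and to the counts on genes of the sample. The trend with age was tested with the quasi-likelihood F test of edgeR on postnatal day as a number over 14293 genes, and adjusted p refers to Benjamini-Hochberg adjustment over these genes at 0.05. All 10 members passed the filter on low counts. Of these, 4 rose with day (*Cacna1a*, *Cacna1g*, *Cacnb4* and *Cacna2d2*), against a background of 12.1% of all genes tested, and 3 fell (*Cacna1b*, *Cacna1h* and *Cacna2d1*), against a background of 14.1%. Without the P0 time point the same 4 members rose, and *Cacna1b* was the 1 that fell. With all time points, the other 3, *Cacna1c*, *Cacna1d* and *Cacna1e*, did not pass. The median slope of the 10 members was -0.07 log2 units per day, beside -0.01 over all genes tested. With the time point as a factor, which also finds peaks and dips, 6 members passed against 19.3% of all genes, and *Cacna2d1* was the called member that did not (adjusted p = 0.223). In RPKM, every P21 sample lay above every P0 sample for the 4 rising members, and 14.4% of genes tested showed this. Every P21 sample lay below every P0 sample for 5 members, the 3 that fell and also *Cacna1c* and *Cacna1e*, and 24.7% of genes tested showed this. *Cacna1d* was the member whose P0 and P21 values overlapped.

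**Figure D1:**
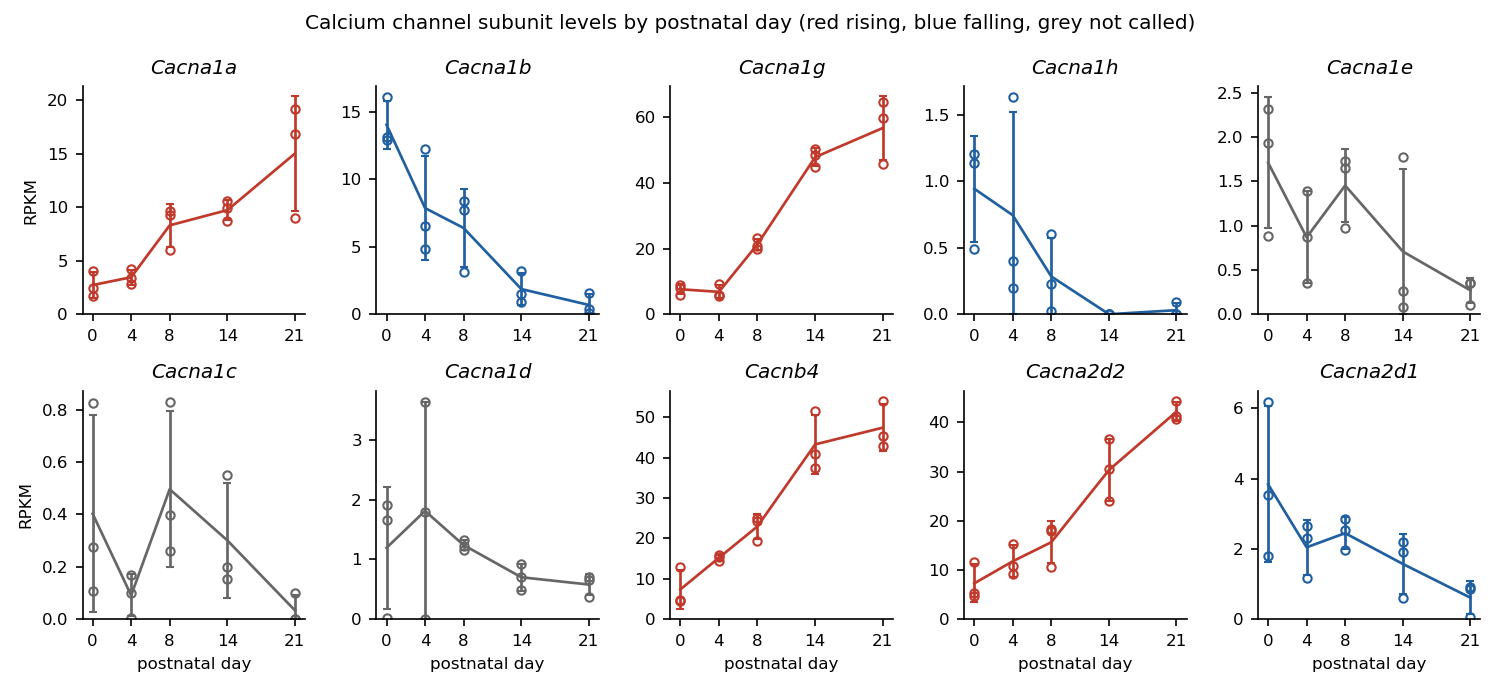
Levels of the 10 members in RPKM against postnatal day, each on its own axis from 0, with open circles for the 3 samples of a time point and the line and bars for their mean and SD (bars stop at 0). Red panels rose with day, blue panels fell and grey panels did not pass the test. *Cacna1g* has its mean at 7.60 RPKM at P0 and 56.7 at P21, whereas *Cacna1b* has its mean at 14.1 at P0 and 0.693 at P21.

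The pore subunit of the P/Q-type channel rose with day, although no single step between neighbouring time points passed in edgeR. DESeq2 called its step from P4 to P8. *Cacna1a* (ENSMUSG00000034656) lies on chromosome 8 of GRCm38 from 84388440 to 84640246, plus strand, in the GENCODE M21 annotation. Its RPKM was 2.41, 4.04 and 1.73 in the 3 P0 samples, 4.19, 3.41 and 2.78 at P4, 9.29, 5.995 and 9.63 at P8, 9.90, 8.71 and 10.6 at P14, and 19.2, 16.9 and 8.95 at P21. All P14 and P21 samples exceeded all P0 and P4 samples, while replicate 3 of P21 lay among the P14 samples. The mean went from 2.73 ± 1.19 RPKM (SD, n = 3) at P0 to 15.01 ± 5.38 at P21, and the slope was 0.14 ± 0.02 log2 units per day (SE, adjusted p = 7.30e-06).

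*Cacna1b* moved the other way. This N-type pore gene (ENSMUSG00000004113, chromosome 2 from 24603887 to 24763152, minus strand) is known from presynaptic terminals and from young neurons. It read 12.9, 13.2 and 16.1 RPKM at P0, 4.81, 6.58 and 12.3 at P4, 8.39, 3.11 and 7.72 at P8, 1.49, 3.21 and 0.903 at P14, and 1.59, 0.127 and 0.359 at P21. P0 lay above every later sample, P4 and P8 overlapped, and the P14 and P21 samples all lay below P0 and P4. The mean of 14.1 ± 1.80 RPKM at P0 was 20.3 times that of 0.693 ± 0.788 at P21, where replicate 2 held 7 counts. With 1 sample left out this fold ranged from 14.4 (without P21 replicate 2) to 57.9 (without P21 replicate 1). The slope fell by 0.19 log2 units per day (SE 0.03, adjusted p = 8.44e-05).

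With summed exon lengths, the ratio of *Cacna1a* to *Cacna1b* in RPKM crossed 1 between P4 and P8. It was 0.107 to 0.307 in the P0 samples and 0.227 to 0.871 in the P4 samples, so *Cacna1b* was the higher of the pair in each of these. It was 1.11 to 1.93 at P8, 2.71 to 11.7 at P14 and 12.1 to 133 at P21, with *Cacna1a* higher in every sample. The highest value, 133, belongs to the P21 sample with 7 *Cacna1b* counts. Summed exons are 11418 bases for *Cacna1a* and 9942 for *Cacna1b*, but their longest transcripts are 7926 and 9736. In P4 replicate 1 both genes had 182 counts, so with the longest transcripts *Cacna1a* is the higher there.

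T-type channels open near the resting potential, and their 2 members moved in opposite directions. *Cacna1g* (ENSMUSG00000020866, chromosome 11 from 94408391 to 94474198, minus strand) encodes the Cav3.1 pore, the main T-type channel of PCs. Its levels were 8.80, 5.98 and 8.03 RPKM at P0, 5.75, 9.11 and 5.57 at P4, 20.8, 19.9 and 23.1 at P8, 50.3, 44.8 and 48.5 at P14, and 59.8, 64.5 and 45.8 at P21. P0 and P4 overlapped, P8 stood clear of both, P14 stood clear of P8, and P14 and P21 overlapped again. *Cacna1g* had the steepest slope of the rising members, 0.18 ± 0.02 log2 units per day (SE, adjusted p = 5.94e-07), and the highest mean level of all members at P21, 56.7 ± 9.74 RPKM.

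*Cacna1g* was also the one member with a called change between neighbouring time points in the edgeR fit on all 15 samples. It was higher at P8 than at P4 by 1.64 ± 0.24 on the log2 scale (SE, edgeR adjusted p = 0.00159), a call made for 0.882% of genes, and higher at P14 than at P8 by 1.32 ± 0.23 (edgeR adjusted p = 0.00540), made for 1.29% of genes. Its difference from P0 to P4 was -0.05 ± 0.23 and that from P14 to P21 was 0.35 ± 0.23, and neither passed. Between P0 and P4, no member was called higher (1.74% of genes) or lower (0.231%) with edgeR, although 2 members, *Cacnb4* and *Cacna2d2*, were higher at an unadjusted p below 0.05 and 0 were lower. Without P0 replicate 1 those 2 members were called, DESeq2 called 1 of them, *Cacnb4*, and limma-voom called 0. At P8 against P4, *Cacna1a* was also higher at an unadjusted p below 0.05 in edgeR. DESeq2 called it, and limma-voom did not. No member was called lower at P8 than P4 (0.252% of genes, 0 members unadjusted). At P14 against P8 edgeR called 0 members lower (1.38% of genes), with *Cacna1b* and *Cacna1h* the 2 at an unadjusted p below 0.05, of which DESeq2 called *Cacna1h* and limma-voom called 0. DESeq2 and limma-voom, and edgeR without P0 replicate 1, each called 3 members higher at P14 than P8, namely *Cacna1g*, *Cacna2d2* and *Cacnb4*. From P14 to P21 none of edgeR, DESeq2 and limma-voom called a member higher (0.063% of genes) or lower (0.266%), and *Cacna1a* was the 1 member higher at an unadjusted p below 0.05, with 0 lower.

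*Cacna1h* (ENSMUSG00000024112, chromosome 17 from 25374285 to 25433783, minus strand) encodes the Cav3.2 pore and was a low gene throughout. It gave 52, 53 and 21 counts in the P0 samples, 15, 15 and 86 at P4, 1, 30 and 12 at P8, 0 in all 3 P14 samples, and 0, 5 and 0 at P21. In RPKM these are 0.488 to 1.21 at P0, 0.197 to 1.64 at P4, 0.0217 to 0.601 at P8 and at most 0.0922 at P21. Every P14 and P21 sample lay below every P0 and P4 sample. A limit of 3 counts over the whole P14 group is 0.177 CPM and covers counting error only. Against this limit the pooled level was 52.5-fold higher at P0 and 16.0-fold higher at P8. With 1 P0 sample left out the P0 fold was 45.4 to 64.8. At P8, 30 of the 43 counts came from replicate 2, and the fold was 7.31 without it. Replicates differed by more than counting error, so these folds are not lower bounds. The slope fell by 0.26 log2 units per day (SE 0.08, adjusted p = 0.0239). That slope became -0.47 without P21 replicate 2 (adjusted p = 0.00305), the sample with 5 counts, and the call was lost without P21 replicate 1 (adjusted p = 0.0541), without P21 replicate 3 (adjusted p = 0.0543) and without the P0 time point (adjusted p = 0.0789). With the time point as a factor its adjusted p was 0.0487, and this call was lost in 12 of the 15 fits with 1 sample left out.

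L-type and R-type pores stayed low. *Cacna1c* (ENSMUSG00000051331, chromosome 6 from 118587240 to 119196418, minus strand), the Cav1.2 pore of heart and brain, was between 0 and 0.830 RPKM in all samples, and 2 of the 3 P21 samples had no count. Its slope was -0.08 ± 0.08 log2 units per day (SE, adjusted p = 0.498). *Cacna1d* (ENSMUSG00000015968, chromosome 14 from 30039939 to 30491455, minus strand), the Cav1.3 pore that opens at lower voltages, ranged from 0 to 3.64 RPKM. Both extremes were P4 samples, with 175 counts in replicate 1, 0 in replicate 2 and 122 in replicate 3, and P0 replicate 1 had 1 count where the other P0 samples had 94 and 106. From P8 on its samples were close to each other, at 1.16 to 1.33 RPKM at P8, 0.481 to 0.925 at P14 and 0.373 to 0.713 at P21. Its slope of -0.05 ± 0.06 did not pass (adjusted p = 0.524) and was 0.055 in a limma-voom fit (adjusted p = 0.643).

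*Cacna1e* (ENSMUSG00000004110, chromosome 1 from 154390731 to 154884501, minus strand), the R-type pore, read 1.93, 0.883 and 2.32 RPKM at P0 and 0.105, 0.350 and 0.356 at P21. P14 replicate 2 stood high at 1.77 RPKM, while the other P14 samples read 0.0869 and 0.263. The slope was -0.10 ± 0.04 (SE, adjusted p = 0.0807), and it passed without P14 replicate 2 (adjusted p = 0.0226) and in DESeq2 (adjusted p = 0.0412).

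As shares of the summed RPKM of the 10 pore genes of the family, *Cacna1b* held the largest part at birth and *Cacna1g* by P8. *Cacna1b* made up 46.0%, 48.4% and 52.1% of the sum in the P0 samples and 1.96%, 0.153% and 0.639% in the P21 samples. *Cacna1g* went from 26.4% ± 4.73 (SD, n = 3) at P0 through 32.3% ± 12.6 at P4, 54.1% ± 5.07 at P8 and 78.0% ± 2.73 at P14 to 77.6% ± 4.07 at P21. The share of *Cacna1a* was 9.68% ± 4.73 at P0 and 19.97% ± 3.85 at P21, but it already stood at 20.7% ± 2.38 at P8 and 15.9% ± 1.31 at P14. Thus the levels of *Cacna1a* and *Cacna1g* both rose, while *Cacna1g* remained 1.37 to 5.14 times as high as *Cacna1a* in RPKM in every sample. L-type pores together held 5.54% ± 2.21 at P0, 8.76% ± 9.25 at P4, where the samples read 18.4%, 0.0307% and 7.81%, and 1.01% ± 0.114 at P21, and the R-type pore 5.87% ± 2.29 at P0 and 0.395% ± 0.254 at P21. The pore sum itself was 28.7 ± 1.99 RPKM at P0, 21.7 ± 2.99 at P4 and 73.5 ± 15.01 at P21. These shares are descriptions of transcripts over the summed exons and carry no test.

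**Figure D2:**
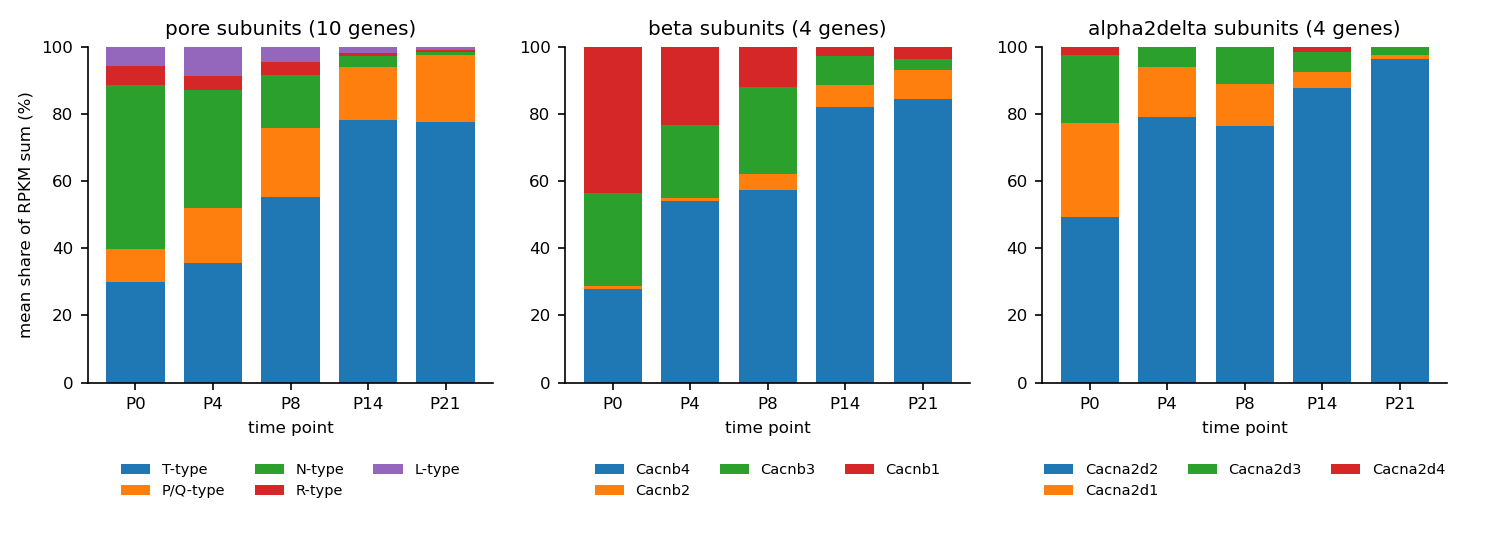
Mean share (%, n = 3 samples) of the summed RPKM held by each channel type or gene at each time point, for the pore genes, the β subunit genes and the α2δ subunit genes. The N-type share of the pore sum is 48.8% at P0 and 0.917% at P21, *Cacnb4* goes from 28.0% to 84.4% of the β sum and *Cacna2d2* from 49.3% to 96.4% of the α2δ sum.

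Among the cytoplasmic β subunits, *Cacnb4* rose and became the main transcript. *Cacnb4* (ENSMUSG00000017412, chromosome 2 from 52428320 to 52676831, minus strand) read 12.997, 4.45 and 4.61 RPKM at P0, 14.3, 15.4 and 15.8 at P4, 25.1, 24.4 and 19.3 at P8, 40.8, 37.4 and 51.5 at P14, and 53.9, 42.9 and 45.3 at P21. P0 replicate 1 stood well above the other P0 samples, yet each time point up to P14 lay clear of the one before it, and P14 and P21 overlapped. The slope was 0.14 ± 0.02 log2 units per day (SE, adjusted p = 6.80e-06).

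The other β genes were taken from a list of further family members. *Cacnb1*, known as the β subunit of skeletal muscle but also present in brain, fell from 11.1 ± 5.01 RPKM at P0 to 1.36 ± 0.225 at P14 and 1.91 ± 1.15 at P21 (slope -0.11 ± 0.03, SE, adjusted p = 0.00294). *Cacnb2*, which carries a membrane-anchored form, rose from 0.219 ± 0.160 RPKM at P0 to 4.89 ± 0.165 at P21, with 0.290 ± 0.353 at P4 and 1.94 ± 0.515 at P8 between them (slope 0.25 ± 0.04, SE, adjusted p = 1.81e-04). *Cacnb3* had its highest mean at P8, 10.4 ± 1.48 RPKM, beside 6.96 ± 0.793 at P0 and 1.89 ± 1.65 at P21, and did not pass (slope -0.08 ± 0.04, SE, adjusted p = 0.183). P21 replicate 2 had 1 *Cacnb3* count. Of the sum over the 4 β genes, *Cacnb4* held 28.0% ± 16.4 at P0 and 84.4% ± 1.76 at P21, *Cacnb1* 43.5% ± 18.1 and 3.58% ± 2.32, *Cacnb3* 27.6% ± 5.72 and 3.21% ± 2.73, and *Cacnb2* 0.857% ± 0.576 and 8.79% ± 0.940. Summed exons of *Cacnb2* are 13228 bases but its longest transcript is 5030. With the longest transcripts its share is therefore larger and that of *Cacnb4* at P21 smaller.

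Among the α2δ subunits, *Cacna2d2* already had the higher mean at P0 and rose, while *Cacna2d1* fell. *Cacna2d2* (ENSMUSG00000010066, chromosome 9 from 107399612 to 107529343, plus strand), the ducky gene, read 11.7, 5.38 and 4.71 RPKM at P0, 9.13, 15.3 and 10.8 at P4, 17.9, 18.4 and 10.6 at P8, 36.5, 24.0 and 30.5 at P14, and 40.7, 41.4 and 44.4 at P21. Neighbouring time points overlapped up to P8, and P14 and P21 each lay clear of all earlier samples. Its slope was 0.14 ± 0.01 log2 units per day (SE, adjusted p = 1.23e-06).

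*Cacna2d1* (ENSMUSG00000040118, chromosome 5 from 15934691 to 16374511, plus strand), a subunit that binds the drug gabapentin, read 3.52, 6.19 and 1.79 RPKM at P0, 2.65, 1.16 and 2.32 at P4, 2.85, 1.95 and 2.53 at P8, 0.611, 1.90 and 2.20 at P14, and 0.850, 0.0725 and 0.908 at P21. The P21 samples lay below all P0, P4 and P8 samples, and P0 to P14 overlapped. The slope fell by 0.09 log2 units per day (SE 0.03, adjusted p = 0.0325). This call rested on single samples: it was lost without P0 replicate 2 (adjusted p = 0.112), without P14 replicate 1 (adjusted p = 0.0531), without P21 replicate 1 (adjusted p = 0.0597), replicate 2 (adjusted p = 0.0515) or replicate 3 (adjusted p = 0.0554), and without the P0 time point (adjusted p = 0.159). The ratio of *Cacna2d2* to *Cacna2d1* was 0.869 to 3.32 at P0 and 47.9 to 571 at P21, the highest ratio again in P21 replicate 2, which held 5 *Cacna2d1* counts. Of the α2δ sum, *Cacna2d2* held 49.3% ± 11.9 at P0 and 96.4% ± 0.600 at P21.

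**Figure D3:**
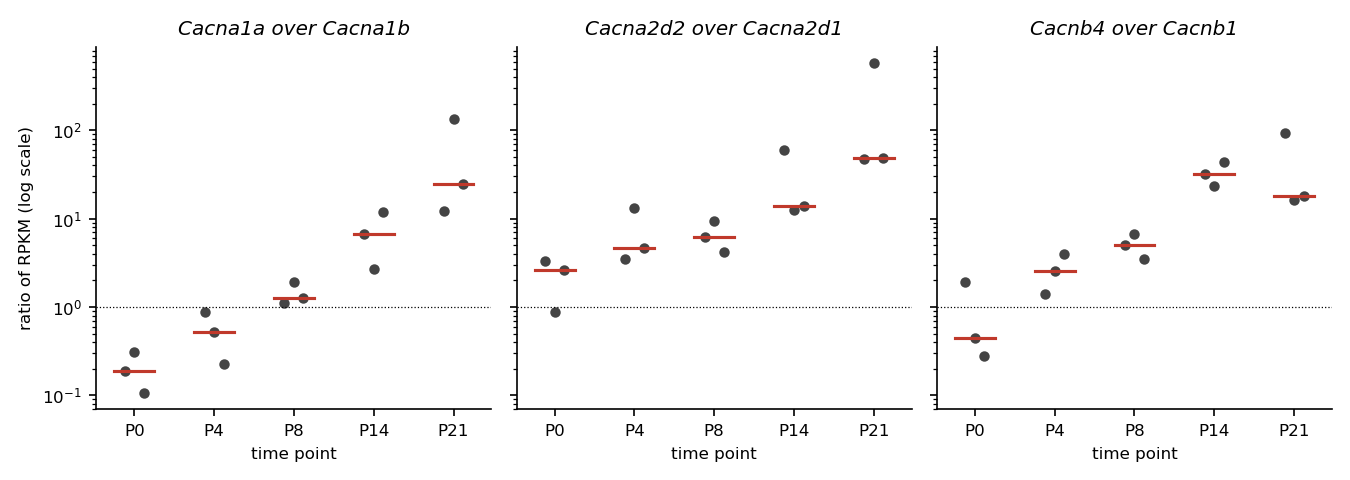
Ratio of RPKM per sample on a log axis for 3 pairs of subunit genes at each time point, with a point per sample, a red bar at the median of 3 samples and a dotted line at 1. With summed exon lengths, the *Cacna1a* to *Cacna1b* ratio is below 1 in all P0 and P4 samples and above 1 in all later samples. The *Cacnb4* to *Cacnb1* ratio has its median at 0.450 at P0 and 18.2 at P21.

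Ordered by mean RPKM, the P0 samples had *Cacna1b* first, clear of *Cacna1g*, and from *Cacna1g* downward each gene overlapped its neighbour in the order. *Cacna1b* was not clear of *Cacnb4*, which read 12.997 RPKM in P0 replicate 1 beside 12.9 for *Cacna1b*. At P4 the order was led by *Cacnb4*, *Cacna2d2*, *Cacna1b* and *Cacna1g*, each overlapping the next. At P8 *Cacnb4* and *Cacna1g* overlapped at the top, followed by *Cacna2d2*, which was clear of both its neighbours. At P21 *Cacna1g*, *Cacnb4* and *Cacna2d2* were at the top (56.7, 47.4 and 42.2 RPKM), with *Cacnb4* overlapping both of the others and *Cacna1g* clear of *Cacna2d2*, *Cacna1a* followed at 15.01 RPKM clear of both neighbours, and each of the other 6 members had a mean below 1 RPKM. The highest of those was *Cacna1b* at 0.693 RPKM. These orders and levels rest on summed exon lengths, which are 10137 bases for *Cacna1g* and 7947 for *Cacna2d2*. With the longest transcripts, of 8383 and 5807 bases, *Cacna1g* and *Cacna2d2* overlap at P8 and at P21. In P0 replicate 1, *Cacna2d2* is then also above *Cacna1b*.

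Of 10 further subunit genes of the family, 6 passed the filter, of which 1 rose (*Cacnb2*, against 12.1% of all genes tested) and 1 fell (*Cacnb1*, against 14.1%), shares near that background. *Cacna2d3* ranged from 0.153 to 4.605 RPKM without passing (slope -0.02 ± 0.04, SE, adjusted p = 0.681). *Cacna2d4* had no count in 11 of the 15 samples, the third T-type pore gene *Cacna1i* had none in 8, and both stayed below 1 RPKM in every sample. The muscle and retina genes *Cacna1s*, *Cacna1f*, *Cacng1* and *Cacng6* had no count in 14, 12, 13 and 15 samples and were not tested.

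Proteins that bind these channels were counted as a separate list of 16 genes, 13 of them tested, of which 4 rose (12.1% of all genes tested) and 5 fell (14.1%). The rising ones include *Snap25*, a SNARE protein of the release machinery, from 59.1 ± 5.41 RPKM at P0 to 342 ± 40.9 at P21 (slope 0.12 ± 0.01, SE, adjusted p = 9.44e-07). Its step from P0 to P4 was called as well (log2 difference 1.35 ± 0.16, SE, edgeR adjusted p = 2.98e-04). *Tspoap1*, the RIM-binding protein that links channels to release sites, rose from 4.02 ± 2.28 to 11.9 ± 3.61 RPKM (adjusted p = 4.64e-04). *Stac*, an adaptor of L-type channels, rose from 8.84 ± 5.64 to 37.9 ± 10.8 (adjusted p = 0.00334), and *Cabp1*, a calmodulin-like channel regulator, from 0.0127 ± 0.0221 to 1.36 ± 0.803 (adjusted p = 0.00678). Falling ones include *Stx1a*, the SNARE partner of N- and P/Q-type channels, which read 77.1, 56.9 and 66.8 RPKM at P0 and 1.98, 0.0675 and 0.589 at P21 (slope -0.28 ± 0.03, SE, adjusted p = 9.58e-07). The calcium sensor *Ncs1* fell from 94.4 ± 20.96 to 27.7 ± 8.47 (adjusted p = 7.61e-05) and *Stac2* from 23.4 ± 17.2 to 1.03 ± 0.577 (adjusted p = 4.996e-04). *Stac3*, the adaptor of the muscle channel, went from 2.47 ± 1.47 to 0.0610 ± 0.0568 (adjusted p = 0.0174) and the α2δ-like *Cachd1* from 6.92 ± 6.39 to 0.692 ± 0.666 (adjusted p = 0.0309). The *Cachd1* call was lost without P0 replicate 2, P14 replicate 3 or P21 replicate 2, with limma-voom, with log2(day + 1) and with a replicate block, that of *Stac3* without P0 and with log2(day + 1), and that of *Stac* without P0. Thus within both the SNARE genes and the *Stac* adaptors, members rose and fell. The active zone gene *Rims1* reached 5.42 ± 2.07 RPKM at P21 from 2.50 ± 0.995 at P0 and did not pass (adjusted p = 0.102), and *Rims2*, *Rimbp2* and *Rem2* did not pass either. The other small GTPases of the list, *Rem1*, *Rrad* and *Gem*, did not pass the filter.

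**Figure D4:**
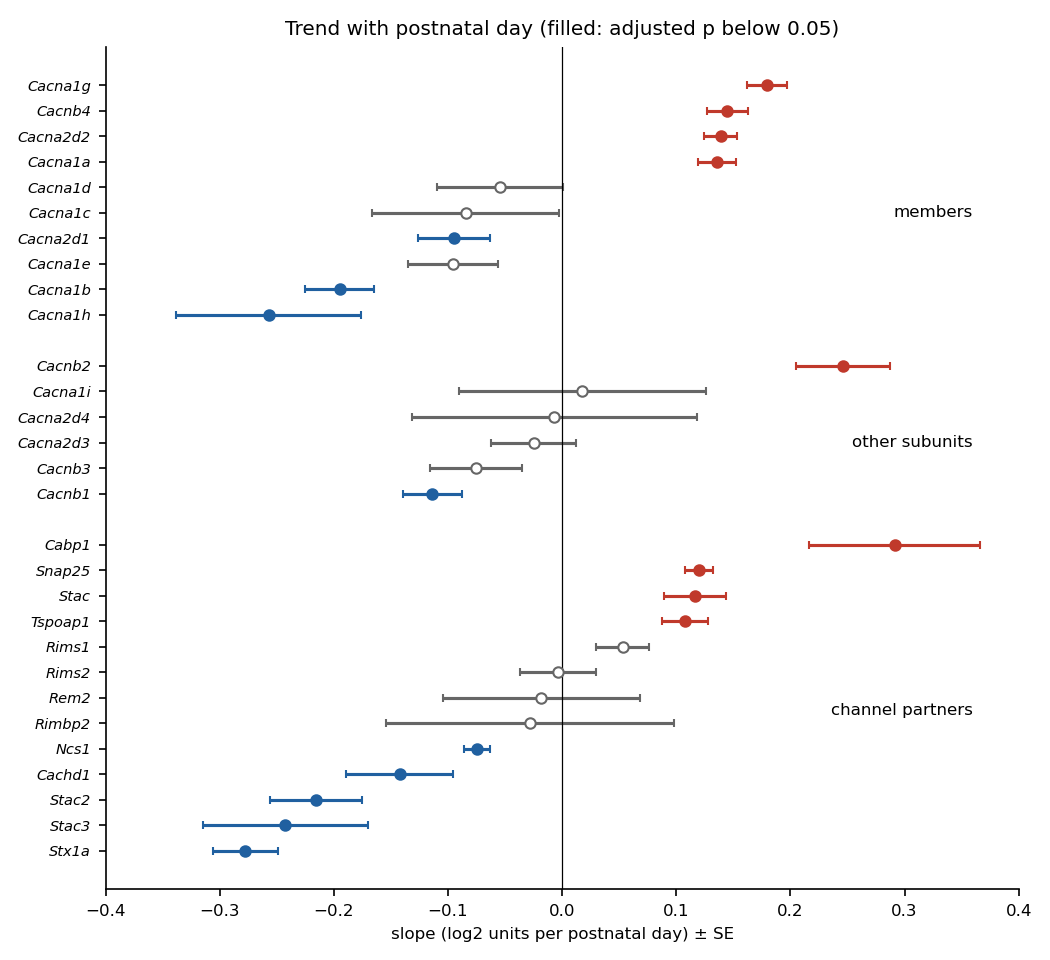
Slope in log2 units per postnatal day (horizontal axis, bars SE) for the tested members, other subunit genes and channel partners, sorted within each list, with filled red for rising, filled blue for falling and open grey for genes that did not pass at an adjusted p of 0.05. The 4 rising members lie between 0.14 and 0.18, and the 3 falling ones between -0.26 and -0.09.

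Over the 15 samples, the protein-coding genes outside the family whose log2 CPM followed *Cacna1g* most closely were *Scn4b* (Pearson r = 0.987), *Adam23* (r = 0.986) and *Rspo3* (r = 0.985). For *Cacna1a* they were *Pura* (r = 0.970), *Mreg* (r = 0.966) and *Slc12a5* (r = 0.963), the neuronal chloride cotransporter KCC2. For *Cacna2d1* they were *Adcy5* (r = 0.896), *Rap2b* (r = 0.884) and *Umps* (r = 0.881), a looser likeness than for the other pair of genes. These correlations are the highest of 12837 genes compared, share the same libraries and the same course of age, and are given as a description. Among the members themselves, *Cacnb4* and *Cacna2d2* were the closest pair (r = 0.965), *Cacna1g* followed *Cacna1a* (r = 0.912) and *Cacna2d2* (r = 0.909), and *Cacna1b* ran opposite to *Cacna2d2* (r = -0.860).

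The makeup of the captures was read from marker genes in TMM-scaled CPM. Each of 6 markers of PCs (*Car8*, *Calb1*, *Pcp2*, *Pcp4*, *Ppp1r17* and *Itpr1*) rose. Their sum went from 4549 to 6007 at P0 to 36886 to 46640 at P21, 8.04-fold in the mean. Abundant genes weigh most in this sum. Single markers differed, with 4.79-fold for *Pcp4*, 35.99-fold for *Itpr1* and 1596-fold for *Ppp1r17*, whose mean was 0.988 at P0. On the same scale the fold was 9.56 for *Cacna1g*, 8.22 for *Cacnb4*, 7.41 for *Cacna2d2* and 7.08 for *Cacna1a*. With 1 sample left out it was 6.85 to 13.4 for *Cacnb4* and 6.29 to 10.7 for *Cacna2d2*, both highest without P0 replicate 1. It was 8.62 to 10.6 for *Cacna1g* and 5.98 to 9.28 for *Cacna1a*. Whether the members rose together with the markers was not tested. In a bulk capture, fewer cells of a type and less RNA per cell cannot be told apart. The sum of 8 glial markers was 3872 to 5577 at P0, 8174 to 9807 at P8 and 3425 to 4968 at P21, with no marker at 0 at any of the 5 time points. This sum joins genes that moved apart. With day 3 of them rose (*Slc1a3*, *Sept4* and *Hopx*, against 12.1% of all genes tested). Another 2 fell (*Aldh1l1* and *Fabp7*, against 14.1%), and 3 were not called. Oligodendrocyte markers (5 genes) summed to 13.7 to 35.9 at P0, with 2 genes at 0, and 396 to 845 at P21 with none at 0. Vascular and mural markers (5 genes) summed to 33.5 to 121 at P0 and 16.7 to 35.4 at P21, each time with 1 gene at 0. The sum of 4 granule neuron markers was 210 to 332 at P0, 459 to 770 at P8, 388 to 959 at P14 and 243 to 434 at P21, with none at 0 at a time point, and 1 of them, *Gabra6*, rose (slope 0.54 ± 0.09, SE, adjusted p = 2.38e-04). Over all samples, sums ranged from 68.3 to 152 for 7 interneuron and Golgi cell markers, of which 1 or 2 were at 0 at each time point, and from 0 to 25.5 for 4 microglial markers, of which 1 was at 0 at P4. The part of these cells in the changes of the channel genes was not tested. Scaling by TMM in place of total counts moved the median log2 ratio of P21 to P0 over the 13421 tested genes with counts at both ages from -0.47 to -0.11, a shift of 0.36, so RPKM ratios are smaller than these ratios for rising genes. On both scales the 4 rising members were higher and the 3 falling members lower at P21 than at P0.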

How the data were processed

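RNA of laser-captured PCs was sequenced at 5 time points with 3 biological replicates each, by the SMARTer Ultra Low RNA Kit, and the sample titles gave the groups and replicate numbers. The authors trimmed reads with cutadapt 1.2.1, aligned them to GRCm38/mm10 with GSNAP, kept unique alignments and counted reads lying wholly within features with HTSeq 0.5.3p9, and the deposited values are unnormalized whole-number counts per Ensembl gene. The annotation release and the strand setting are not given in the sources used here. Reads outside genes, 16.7% to 29.8% of the total, and ambiguous reads, 1.16% to 1.57%, were left out. *Cacna1a*, *Cacna1d*, *Cacna1h*, *Cacnb4* and *Cacna2d2* share 435, 589, 158, 1433 and 82 exon bases with a gene on the opposite strand, so reads there are uncertain.

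Gene names, positions and exon lengths are those of GENCODE M21 (36639 identifiers matched). RPKM was computed from the summed exon length and the counts on genes, and CPM from TMM effective library sizes, with a prior count of 2 for log2 values. Tests used edgeR 4.0.16 in R 4.3.3 (TMM, filterByExpr by time point, quasi-likelihood F test, Benjamini-Hochberg at 0.05) on all 15 samples, first with the day as a number, then with the time point as a factor. The SE was derived from the log2 difference and F. The script was tested on simulated data. Python 3.11.15, numpy 2.4.6, pandas 2.3.3 and matplotlib 3.10.9 served for tables and figures. Alternatives were RLE normalization, no filter, DESeq2 1.42.0, limma-voom (limma 3.58.1), log2(day + 1), no P0, a replicate block, each sample left out, and, for levels, the longest transcript and TMM sizes. Replicates differed by far more than counting noise (chi-square per gene 18.4 to 56.5), and each counted as 1 sample. The members and gene lists were chosen with earlier results of these data known. The rule named the 10 members, listed subunits and partners that passed the test or reached 5 RPKM, and the 3 genes most like *Cacna1a*, *Cacna1g* and *Cacna2d1*. Other listed genes are named by their counts of empty samples, chosen after their values were seen.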

Additional observations from a re-analysis of the deposited data

How the results depend on the processing

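The 4 rising members and *Cacna1b* kept their call in all 22 alternatives. Members falling with day numbered 1 under log2(day + 1), 1 without the P0 time point (in both, *Cacna1b*), and 1 to 4 with 1 sample left out. Other subunits called with day numbered 4 without the filter on low counts, where *Cacna1s* and *Cacng1* joined with counts in no more than 2 samples each, and 1 without the P0 time point (*Cacnb2*). Members higher at P4 than P0 numbered 1 in DESeq2 and 0 to 2 with 1 sample left out. Members higher at P8 than P4 numbered 2 in DESeq2 (*Cacna1a* and *Cacna1g*). Members higher at P14 than P8 numbered 3 in DESeq2, 3 in limma-voom and 1 to 3 with 1 sample left out, and members lower numbered 1 in DESeq2. The slope of *Cacna1d* turned to 0.055 in limma-voom, not called in either fit. Under log2(day + 1) the adjusted p was 0.0729 for *Cacna1h* and 0.0824 for *Cacna2d1*. For these changes the cause was not tested, and the fits that leave samples out also have fewer samples. With the length of the longest transcript in place of the summed exons, the shares moved to 42.4% for *Cacna1b* at P0, 73.8% for *Cacnb4* at P21 and 94.6% for *Cacna2d2* at P21.

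Same-numbered samples of different time points did not deviate together over all genes tested (mean r = -0.0033 over 30 pairs), and the samples were not treated as paired. The value for different numbers, 0.0017, is no separate comparison, because deviations were taken from the mean of each time point. A batch shared by same-numbered samples in some genes was not tested. With a replicate block, 4 members rose and 3 fell, and 5 in place of 6 changed in any pattern, *Cacna1h* being the one lost, as it also was in 12 of the 15 fits with 1 sample left out. At these depths, levels of *Cacna1c*, *Cacna1h* and late *Cacna1b* and *Cacna2d1* rest on few counts, and single samples, high or near 0, weigh on their spread. *Cacna1h* had 15, 15 and 86 counts at P4, *Cacna1c* 82, 26 and 10 at P0, and *Cacna2d1* 36, 5 and 79 at P21.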
